A study of Mus musculus with 217 samples.

Results

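The lung capillary subtype markers are 9 genes, taken by name from 52550 genes in the count files. No cut on their measured values was used, but earlier results of these data were known. Car4, Ednrb, Apln and Emp2 are known as markers of aerocytes, and Aplnr and Kit as markers of general capillary cells. Prx, Tspan8 and Kitl are described beside them without being placed in either type. Each was followed in the ribosome-bound mRNA of brain, lung and heart endothelial cells (ECs) at 0 hr and at 6, 24, 48, 72 and 168 hr after LPS. All mice were adult C57BL/6J of the RiboTagEC genotype, Cdh5CreERT2/+; Rpl22HA/+. The Cdh5 (VE-cadherin) promoter drove an inducible Cre in endothelium of every organ and vessel type, tamoxifen had been given at 4 to 6 weeks of age to all groups, controls included, and ribosomes carrying the HA tag were pulled down with an anti-HA antibody. LPS, the endotoxin of Gram-negative bacteria, was injected intraperitoneally at 10 mg/kg, and the 0 hr group is labelled control. The sequencing runs summed to 98 libraries, of which 80 entered the comparisons, and 18 libraries with 1.73 to 2.75% of their reads on genes were left out. In the order of the time points, 5, 5, 4, 6, 4 and 4 libraries were used for brain and likewise for heart, and 4, 4, 2, 6, 4 and 4 for lung.

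The capillary bed of the alveolus is built of a pair of intermingled EC types. Aerocytes are large, thin cells that lie against the type 1 epithelium and serve gas exchange, whereas general capillary cells are smaller and act as progenitors when the bed is repaired. The types carry opposite ends of signalling pairs. Apln encodes apelin, a secreted peptide, and Aplnr its G protein-coupled receptor. Kitl encodes stem cell factor and Kit the receptor tyrosine kinase that binds it. Ednrb encodes the endothelin receptor type B, which clears endothelin from lung blood and couples to nitric oxide release. Car4 encodes carbonic anhydrase IV, a membrane-anchored enzyme that interconverts bicarbonate and carbon dioxide on the capillary surface. Emp2 and Tspan8 encode 4-pass membrane proteins, epithelial membrane protein 2 and a tetraspanin. Prx encodes periaxin, a scaffold protein first known from the myelin of Schwann cells. None of the 9 genes is restricted to lung or to ECs. Emp2 is abundant in type 1 alveolar epithelium, Kit in mast cells, Ednrb in astrocytes and Prx in Schwann cells. The pulldown pools all ECs of an organ, so that fewer cells of a type and less RNA per cell cannot be told apart.

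All 9 genes are protein-coding, and their positions were taken from the GENCODE annotation of GRCm38, the assembly also called mm10. The aerocyte markers lie at chr11:84957786-84966044 on the plus strand (Car4), chr14:103814625-103844402 on the minus strand (Ednrb), chrX:48025146-48034853 on the minus strand (Apln) and chr16:10281749-10313968 on the minus strand (Emp2). The general capillary markers lie on the plus strand, Aplnr at chr2:85136225-85139923 with 1 exon and Kit at chr5:75574916-75656722. Prx lies at chr7:27499324-27520214, Tspan8 at chr10:115816832-115849893 and Kitl at chr10:100015630-100100416, all on the plus strand. Exons of Prx share 300 bases with Gm15541 on the other strand and those of Tspan8 share 4 bases with 4930422I22Rik. Whether the counting used strand is not stated.

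The 250 bases before the RefSeq start of Car4, Apln, Emp2 and Prx are shown, since the levels of these genes set lung apart or moved in opposite directions between organs after LPS. Capitals mark GGAA, the core motif bound by ETS factors such as the endothelial ERG and FLI1, or its reverse complement TTCC. The sequences are RefSeq's (GRCm38.p6), written 5′ to 3′ along the gene. They come from chr11:84957504-84957753 (plus strand), chrX:48034854-48035103 (minus strand), chr16:10313969-10314218 (minus strand) and chr7:27499074-27499323 (plus strand), and hold no annotated exon.
Car4: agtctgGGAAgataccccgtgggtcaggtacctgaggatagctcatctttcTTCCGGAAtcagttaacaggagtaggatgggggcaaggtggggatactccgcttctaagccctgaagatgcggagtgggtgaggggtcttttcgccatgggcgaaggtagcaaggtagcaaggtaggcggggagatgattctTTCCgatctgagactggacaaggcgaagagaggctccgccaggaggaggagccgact
Apln: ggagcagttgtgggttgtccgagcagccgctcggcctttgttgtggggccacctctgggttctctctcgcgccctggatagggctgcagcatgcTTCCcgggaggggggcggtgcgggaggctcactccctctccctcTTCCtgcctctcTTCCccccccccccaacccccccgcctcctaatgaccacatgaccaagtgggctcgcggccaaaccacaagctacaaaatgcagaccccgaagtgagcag
Emp2: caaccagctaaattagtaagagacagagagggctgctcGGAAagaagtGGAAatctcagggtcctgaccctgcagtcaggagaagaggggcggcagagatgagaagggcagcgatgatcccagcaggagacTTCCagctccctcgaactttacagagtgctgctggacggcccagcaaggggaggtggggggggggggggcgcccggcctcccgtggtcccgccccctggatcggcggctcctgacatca
Prx: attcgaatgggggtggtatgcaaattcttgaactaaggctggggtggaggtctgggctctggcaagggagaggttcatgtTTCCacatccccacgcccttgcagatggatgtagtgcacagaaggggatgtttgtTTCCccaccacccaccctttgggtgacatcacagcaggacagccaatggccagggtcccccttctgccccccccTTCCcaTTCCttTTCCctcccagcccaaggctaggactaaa

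Promoter entries matched 8 of the 9 genes, all but Aplnr. Counting both strands, the core occurred 4 times in the Car4 stretch, 3 times in those of Apln and Emp2 and 5 times in that of Prx, and GC content was 56.4, 65.2, 62.8 and 56.4% in the same order. At least 1 core was found in 93.4% of 32851 mouse promoter stretches of this length, with a median of 3, so that its presence sets none of the 4 apart. CACCC, the core of the Krüppel-like factor site, occurred 5 times before Prx and once before Car4, and was not found before Apln or Emp2. It was present in 52.0% of all stretches. ACGTG, the core of the hypoxia response element, is in 16.6% of all stretches and was found in none of the 8 entries, also counting both strands.

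Depth differed most among the lung libraries. Reads on genes made up 53.4 to 70.0% of all reads in the brain libraries, 43.7 to 68.9% in heart and 3.40 to 61.0% in lung, and the counts on genes ran from 284457 to 43417945 in lung. The shallowest, the lung 6 hr library of replicate 4, can show no level under 86.7 normalised CPM (read counts scaled to a common library size) at a floor of 3 counts, against 0.077 to 4.37 in the other 79, the highest being lung 6 hr replicates 2 and 1 (4.37 and 1.79). Some libraries went against their labels or stood apart. In the brain library labelled 6 hr replicate 6, the adhesion receptor gene Selp stood at 0.694 normalised CPM, within the 0 hr range of 0.0898 to 0.774 and far from the 63.1 to 133 of the other 6 hr brain libraries. In the heart library labelled 6 hr replicate 5, Selp stood at 6.50 normalised CPM against 453.9 to 932.1 in the other 4 and 2.98 to 4.35 at 0 hr. Called results at 6 hr in brain and heart are therefore also given without these libraries. In the lung 48 hr libraries of replicates 1 and 2, Selp was at 0.406 and 0 normalised CPM whereas the acute-phase gene Saa3 was at 3120 and 1132. The 48 hr libraries of replicates 1 and 2 also had low Selp in brain, at 23.6 and 5.86 normalised CPM against 205 to 391 in the other 4, and in heart, at 93.2 and 55.6 against 354 to 574. No result at 48 hr was refitted without both of these replicates. Pan-endothelial markers (10 genes, among them Pecam1 and Cdh5) summed to 1238 to 2601 normalised CPM in brain at 0 hr, 8747 to 10414 in heart and 8246 to 12009 in lung. Markers of other cell types were present too. Type 2 alveolar epithelium markers summed to 2266 to 10827 normalised CPM in lung, cardiomyocyte markers to 3008 to 6061 in heart and neuron markers to 1018 to 4170 in brain.

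At baseline the lung stood above the mean of brain and heart in 6 of the 9 genes and below it in none. Prx and Emp2 differed most, followed by Tspan8, Apln, Kit and Car4. The lung level of Emp2 varied with the share of reads on genes and with library series, as given below. By edgeR's quasi-likelihood test with library series as covariate, 62.4% of 17730 genes differed in this comparison, 28% being higher and 34.4% lower in lung, so that a difference is in itself common. The median log2 fold change was 1.83 over the 9 markers and −0.35 over all genes. Ednrb (0.29, adjusted p = 0.616), Aplnr (−0.42, adjusted p = 0.217) and Kitl (−0.91, adjusted p = 0.088) did not pass. Kitl was called lower in lung by voom (−1.16, adjusted p = 0.0212), with the replicate block (−1.11, adjusted p = 0.0276), with the mouse read from file names as a block (−1.62, adjusted p = 0.0077) and without lung replicate 4 of 0 hr (−1.58, adjusted p = 0.00391).

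**Figure D1:**
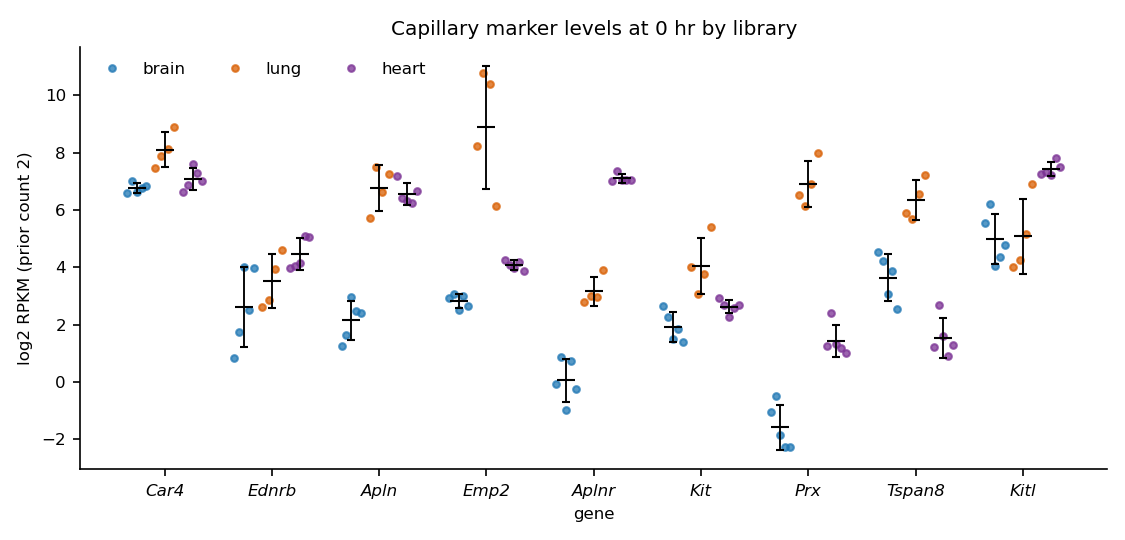
Levels of the 9 genes at 0 hr as log2 RPKM (vertical axis, comparable between genes), 1 coloured point per library for brain (5), lung (4) and heart (5), with black bars for the mean ± SD. The lung points of Prx sit above all brain and heart points, whereas those of Aplnr sit below all heart points.

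Per length, the aerocyte markers formed different orders in the 3 organs. Car4 was the highest of the 9 genes in brain, at a mean of 6.76 ± 0.17 log2 RPKM (SD, n = 5), and stood at 7.08 ± 0.38 in heart (n = 5) and 8.10 ± 0.61 in lung (n = 4). Its level in the 4 lung libraries was 346.6, 466.3, 552.1 and 944.1 normalised CPM. Car4 was at 187.9 to 252.7 normalised CPM in brain and at 195.2, 227.3, 383.8, 304.2 and 252.9 in heart. Brain did not overlap lung, and heart reached into the lung range with 1 library. The log2 fold change of Car4 was 1.497 against brain (SE 0.28, adjusted p = 3.16e-04) and 1.10 against heart (SE 0.29, adjusted p = 0.00409).

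Apln, the apelin ligand, was abundant in lung and heart and low in brain. It stood at 164.9, 570.7, 307.9 and 482.9 normalised CPM in lung, at 237.1 to 454 in heart and at 7.36 to 24.4 in brain. The lung and heart ranges overlapped, and every brain library lay below both. Against brain the log2 fold change was 4.80 (SE 0.41, adjusted p = 1.69e-07), and heart did not pass the test against lung. Ednrb varied within organs: 7.54, 14.3, 69.2, 24.1 and 66.8 normalised CPM in brain, 66.6 to 145.5 in heart and 26.1, 30.6, 65.8 and 104.4 in lung. Its lung level overlapped with those of both other organs, and brain against heart passed, at a log2 fold change of −1.68. Lung against heart passed with the mouse block (−1.34, adjusted p = 0.0269) and without lung replicate 4 of 0 hr (−1.38, adjusted p = 0.0115), and lung against brain with the replicate block (1.07, adjusted p = 0.0306) and by DESeq2 (1.17, adjusted p = 0.0365).

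Emp2 had the highest mean of the 9 genes in lung, 8.88 ± 2.13 log2 RPKM, and the widest spread. It stood at 2593, 14982, 11491 and 613 normalised CPM in lung, at 125.5 to 165.9 in heart and at 49.0 to 71.8 in brain. The lung libraries differed among themselves by more than the lowest of them differed from heart. Against the mean of brain and heart the log2 fold change was 6.14 (SE 0.55, adjusted p = 4.28e-07). Within library series 1 the difference of lung from heart was 3.02 on the log2 CPM scale, and within series 2 it was 6.55. The lung libraries with Emp2 at 2593, 14982 and 11491 had 18.8, 19.2 and 28.6% of reads on genes, and the one at 613 had 56.2%. At 168 hr the lung mean of Emp2 was 6.72 log2 RPKM. That was below Car4 (8.70), Prx (7.56), Tspan8 (7.55) and Kitl (6.78) and above the other markers.

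Aplnr, the apelin receptor, was highest in heart. It stood at 472.7, 609.1, 485.4, 482.9 and 490 normalised CPM in heart, at 25.5, 29.2, 28.5 and 55.4 in lung and at 1.77 to 6.65 in brain. The 3 organs did not overlap. Lung was below heart by a log2 fold change of −3.92 (SE 0.37, adjusted p = 1e-06) and above brain by 3.08 (SE 0.34, adjusted p = 1.84e-06). Set against pan-endothelial counts, Aplnr counts came to a median of 0.193% in brain, 5.05% in heart and 0.319% in lung. Kit, the other general capillary marker, stood at 143.2, 74.6, 120.3 and 373.7 normalised CPM in lung, 42.9 to 67.5 in heart and 23.5 to 55.7 in brain, and every lung library lay above every other. Its log2 fold change against the mean of brain and heart was 1.83 (SE 0.24, adjusted p = 1.24e-05). Kitl, the ligand of Kit, was highest in heart, at 873.4 to 1325 normalised CPM, with 95.1, 112.7, 212.8 and 699.6 in lung and 97.3 to 438.7 in brain. Lung was below heart by −2.17 on the log2 scale (SE 0.52, adjusted p = 0.00244).

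Prx was the gene that lung set apart most. It stood at 506.6, 393.1, 671.1 and 1428 normalised CPM in lung, at 11.0 to 29.7 in heart and at 1.05 to 3.87 in brain. The log2 fold change of Prx was 8.60 against brain (SE 0.43, adjusted p = 1.38e-09) and 5.44 against heart (SE 0.37, adjusted p = 8.85e-08), and brain was below heart by −3.16. Markers of myelinating cells did not share this order: they summed to 649 to 5163 normalised CPM in brain, 2.48 to 4.79 in heart and 8.44 to 41.6 in lung. Tspan8 stood at 102, 88.2, 158.1 and 254.4 normalised CPM in lung, 9.86 to 38.9 in brain and 3.05 to 10.9 in heart. It was above brain by 2.73 and above heart by 4.79 on the log2 scale, with adjusted p of 1.41e-05 and 3.79e-07.

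Counted by organ pair, 7 of the 9 genes were higher in lung than in brain and none lower, in a comparison where 64.3% of genes were called, 26.4% as higher and 37.9% as lower. Against heart 5 were higher and 2 lower, with 61.1% of genes called, 29.9% as higher and 31.2% as lower. Brain against heart gave 1 higher and 6 lower, with 54.8% of genes called, 32% as higher and 22.8% as lower. These calls depended on the scale. Scaled by the summed counts of 10 pan-endothelial genes, a choice made after seeing the data that moves the median of all genes from −0.35 to −1.69 in lung against the mean of brain and heart, Car4 came to −0.022 there and Kit to 0.51 (adjusted p = 0.108). Prx, Emp2, Tspan8 and Apln kept their calls at 5.69, 4.77, 2.42 and 1.10. Against brain, Car4 turned to −1.08 and Kit to −0.38 under this scaling and Aplnr and Tspan8 no longer passed, and in brain against heart Ednrb turned to 0.91 and Kit to 1.77. The same scaling made new calls. Aplnr (−1.74, adjusted p = 4.16e-05) and Kitl (−2.21, adjusted p = 1.62e-04) were then lower in lung than in the mean of brain and heart. Against brain, Ednrb (−1.56, adjusted p = 0.028) and Kitl (−2.20, adjusted p = 1.71e-04) were lower in lung, and Car4 (2.13) and Emp2 (1.14, adjusted p = 0.046) were higher in brain than in heart.

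Further genes of the same cell types followed, in a comparison where 28% of all genes were called higher in lung and 34.4% lower. Of 6 further aerocyte genes 5 were higher in lung than in the mean of brain and heart (median log2 fold change 3.07), led by the transcription factor gene Tbx2 (6.87), Rprml (6.07) and Fibin (4.09). Of 8 further general capillary genes 6 were higher (median 4.32), among them Glp1r, the GLP-1 receptor (5.25), Sema3c, a semaphorin (5.18), Gpihbp1, which anchors lipoprotein lipase on capillaries (4.70), and Plvap, the diaphragm protein of fenestrae and caveolae (3.93). Of 10 pan-endothelial genes 4 were higher and 1 lower, with a median of 0.06. Among ligands, receptors and paralogs of the markers, 13 of 15 were tested, 5 were higher and 4 lower (median −0.13). Ece1, which converts endothelin to its active form, was higher by 2.19 and Car3 by 3.45, whereas Car13 was lower by −5.16.

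Markers of epithelium were also higher in lung, 5 of 5 for type 1 cells with a median log2 fold change of 9.10, beside 28% of all genes. Their summed level in lung was 1071 to 1630 normalised CPM, in brain 19.5 to 62.2 and in heart 33.6 to 66.5. Among the lung libraries Emp2 spanned a far wider range than this sum, and the part of epithelial RNA in its level was not tested. Mast cell markers summed to 3.19 to 9.35 normalised CPM in lung at 0 hr, beside 74.6 to 373.7 for Kit. The part of mast cell RNA in the level of Kit was not tested.

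After LPS the clearest change shared by organs was the fall of Aplnr, which passed the test at 6 hr in lung, brain and heart and at 24 hr in brain and heart. Lung Aplnr stood at 1.19, 0, 3.21 and 0 normalised CPM at 6 hr and at 1.26 and 1.69 at 24 hr, against 25.5 to 55.4 at 0 hr. No library of either time reached the 0 hr range, although the lung 6 hr library of replicate 4 is too shallow to show a level of that size. At 6 hr the log2 fold change was −4.64 (SE 0.96, adjusted p = 0.00552). At 24 hr it was −3.30 with 2 libraries (adjusted p = 0.366). At 48 hr lung Aplnr stood at 26.8 and 31.9 in the replicates 1 and 2 whose Selp was near 0, and at 1.42 to 16.5 in the other 4. By 168 hr it was at 92.0, 67.0, 43.1 and 60.4, a log2 fold change of 1.85 that did not pass.

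In heart, Aplnr stood at 19.2, 44.9, 57.5 and 47.9 normalised CPM at 6 hr in the first 4 replicates and at 174.3 in the library labelled replicate 5, against 472.7 to 609.1 at 0 hr. This was a log2 fold change of −2.86 (SE 0.69, adjusted p = 0.0028) and −3.85 without replicate 5. It was −3.52 at 24 hr (adjusted p = 0.0108), where the 4 libraries stood at 12.7 to 37.6, and this call was lost without replicate 2 (adjusted p = 0.063). At 48 hr the heart libraries split: 279.4, 420 and 347.4 in replicates 1, 2 and 4, and 5.85 to 19.6 in the other 3. At 168 hr they stood at 385.1 to 684.5, overlapping 0 hr. In brain, where the receptor was low throughout, the 6 hr libraries stood at 0.118 to 0.567 normalised CPM apart from replicate 6 at 2.93, and the log2 fold change was −2.36 (SE 0.56, adjusted p = 0.00937), or −3.22 without replicate 6. The 6 hr call was lost with no library series in the fit (−2.28, adjusted p = 0.134). At 24 hr it was −3.003 (adjusted p = 0.00863).

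**Figure D2:**
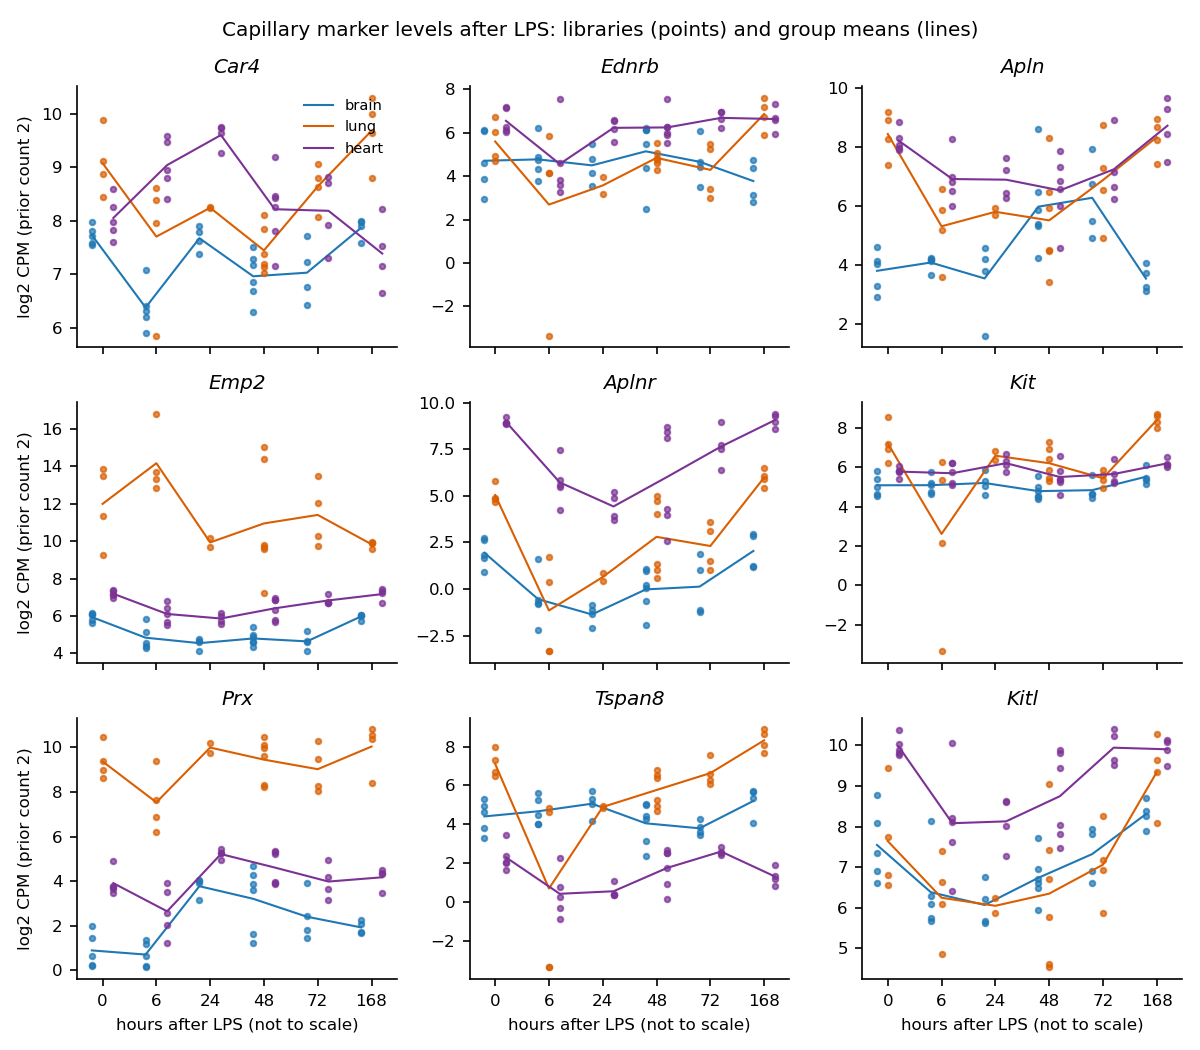
Levels of the 9 genes as log2 CPM (vertical axis) against hours after LPS (horizontal axis, not to scale), with a point for each of the 80 libraries and lines through the group means of brain, lung and heart. Aplnr drops at 6 hr in all 3 organs, and Car4 moves up in heart while it moves down in brain.

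The ligand moved differently. Lung Apln stood at 11.9, 36.4, 95.4 and 57.8 normalised CPM at 6 hr, all below the 164.9 to 570.7 of 0 hr. The 57.8 of replicate 4 lies under that library's floor of 86.7. The log2 fold change of Apln was −2.79 (SE 0.82, adjusted p = 0.0437). This call is at the edge of the threshold, since it was lost in 12 of 24 fits that leave out a library, among them the one without the shallow replicate 4 (−2.56, adjusted p = 0.106). At 24 hr lung Apln stood at 60.4 and 50.8, again below 0 hr. At 48 hr the fold change was −3.06 (adjusted p = 0.0706), with 5 libraries at 10.5 to 87.2 and replicate 4 at 310.1. In heart Apln did not pass at any time, with −1.30 at 6 hr (adjusted p = 0.0606), although all libraries at 24 hr (77.1 to 195.9) and 48 hr (23.5 to 232.2) lay below the lowest at 0 hr (237.1). In brain Apln rose at 48 hr. Its libraries stood at 58.3, 39.3, 87.4, 384, 18.5 and 41.6 against 7.36 to 24.4, which 1 library overlapped, and the log2 fold change was 2.51 (SE 0.70, adjusted p = 0.0194), or 2.16 (adjusted p = 0.086) and 2.19 (adjusted p = 0.0726) without replicate 1 or 2 of 0 hr. At 72 hr brain Apln stood at 29.9, 45.0, 106.5 and 244.7, all above 0 hr, with a log2 fold change of 2.50 that did not pass (adjusted p = 0.0596). By 168 hr it was back at 8.60 to 16.4.

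Car4 moved in opposite directions in heart and brain. In heart it rose, to 705.8, 763.5, 445.6, 494.5 and 337.9 normalised CPM at 6 hr and to 861.9, 852.3, 615.3 and 799.4 at 24 hr, against 195.2 to 383.8 at 0 hr. The 24 hr libraries all lay above 0 hr, and at 6 hr all but the library labelled replicate 5 did. These were log2 fold changes of 0.93 at 6 hr (SE 0.29, adjusted p = 0.0126), or 1.03 without replicate 5, and of 1.38 at 24 hr (SE 0.31, adjusted p = 0.00663). In brain it fell to 59.4, 73.7, 79.3, 84.5 and 135.5 normalised CPM at 6 hr, all below the 187.9 to 252.7 of 0 hr. The fall was by a log2 fold change of −1.35 (SE 0.24, adjusted p = 0.00103), or −1.71 without replicate 6. At 24 hr the brain libraries were at 165.8 to 238.1 and did not differ from 0 hr by the test (−0.06, adjusted p = 0.92). At 48 hr all brain libraries lay below 0 hr, at 78.0 to 181.0, without a call. Lung Car4 stood at 335.1, 248.9, 390.1 and 57.8 at 6 hr, where the fold change of −1.33 did not pass (adjusted p = 0.177). The 57.8, from replicate 4, is under that library's floor of 86.7. At 48 hr lung Car4 stood at 130.5 to 275, below all 0 hr libraries, with −1.72 and adjusted p = 0.152.

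The difference between organs was tested itself. Of 19924 genes, 8.94% changed differently in brain and heart at 6 hr and 2.07% at 24 hr, a comparison added after seeing the data. Car4 differed by −2.35 at 6 hr (SE 0.40, adjusted p = 2.71e-04), by −2.73 without the brain replicate 6 and by −2.46 without the heart replicate 5. At 24 hr the difference was −1.65 (SE 0.42, adjusted p = 0.0246), and it did not pass with no library series (adjusted p = 0.0552). Apln differed at 48 hr by 4.22 (SE 0.88, adjusted p = 0.00526, 2.05% of genes called). The changes in lung and in the mean of brain and heart differed at 48 hr for Car4 by −1.45 (SE 0.38, adjusted p = 0.027) and for Apln by −2.91 (SE 0.80, adjusted p = 0.032), in a comparison with 2.27% of genes called. Of 12 refits without 1 library, the Car4 difference was lost without lung replicate 3 or 4 of 0 hr (adjusted p up to 0.0869), and that of Apln without lung replicate 2 or 3 of 0 hr or 2 of 48 hr (up to 0.0857). With the replicate number of each time as a block shared by the organs, Car4 at 48 hr came to −1.32 (adjusted p = 0.0856) and Apln to −3.18 (adjusted p = 0.0229). The Car4 difference was also lost by voom, with all libraries included and under pan-endothelial scaling (adjusted p up to 0.286). That of Apln was lost under pan-endothelial scaling (adjusted p = 0.078). By the main edgeR fit no marker passed for lung against the mean of brain and heart at 24, 72 or 168 hr. Of all genes 2.62, 0.545 and 0.414% were called there. None passed between brain and heart at 72 or 168 hr, where 0.888% and 0% of genes were called. DESeq2 called Car4 at 24 hr (−1.47, adjusted p = 0.0277), Kit at 72 hr (−1.70, adjusted p = 0.0267) and Emp2 at 168 hr (−2.75, adjusted p = 0.0448) in the former, and Apln at 72 hr in the latter (3.45, adjusted p = 0.0103).

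With library series as the only covariate, Ednrb passed edgeR's test with all libraries used at no time in any organ. In heart at 6 hr it stood at 13.9, 24.5, 9.49 and 11.9 normalised CPM in the first 4 replicates, all far below the 66.6 to 145.5 of 0 hr, and at 187.2 in the library labelled replicate 5. Its log2 fold change was −1.27 (SE 0.61, adjusted p = 0.0959) with that library and −2.89 (SE 0.38, adjusted p = 6.15e-07) without it, and it passed with all libraries under voom (−1.95, adjusted p = 0.0049) and with the replicate block (−1.71, adjusted p = 0.0109). Brain and heart differed in the response of Ednrb at 6 hr by 0.55 with all libraries, a difference that did not pass, and by 2.86 (adjusted p = 0.00175) without that library. At 24 hr heart Ednrb was at 48.2 to 97.3, within reach of 0 hr. In lung it stood at 0, 17.5, 17.3 and 57.8 at 6 hr (−2.21, adjusted p = 0.124), at 8.85 and 15.7 at 24 hr and at 60.5 to 195.4 at 168 hr. The 57.8, from replicate 4, is under the floor of 86.7 of that library.

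Emp2 fell in brain and heart. Brain Emp2 stood at 19.7 to 35.4 normalised CPM at 6 hr in 4 replicates and at 57.0 in replicate 6, and at 17.6 to 27.5 at 24 hr, 20.2 to 42.2 at 48 hr and 17.2 to 36.3 at 72 hr, against 49.0 to 71.8 at 0 hr. The log2 fold changes in that order were −1.02, −1.38, −1.04 and −1.21, with adjusted p of 0.0156, 0.00557, 0.00932 and 0.0129, and at 6 hr −1.41 without replicate 6. At 168 hr brain Emp2 was back at 53.3 to 67.4. In heart the 6 hr libraries stood at 45.8 to 109.9 and the 24 hr libraries at 48.4 to 72.2, all below the 125.5 to 165.9 of 0 hr, with −0.98 (adjusted p = 0.00435, or −1.24 without replicate 5) and −1.21 (adjusted p = 0.0104). Without 1 library, calls of Emp2 were lost in brain at 6 hr (replicate 4 of 6 hr, adjusted p = 0.052), in brain at 72 hr (replicate 3 or 5 of 72 hr, up to 0.0667) and in heart at 24 hr (replicate 2 of 24 hr, 0.0774). In one fit of all 3 organs none of these 6 calls held (adjusted p 0.252 to 0.976), and under pan-endothelial scaling those at 6 hr were lost in brain (−0.95, adjusted p = 0.114) and heart (−0.36, adjusted p = 0.23).

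Lung Emp2 had no such pattern. It stood at 13036, 114796, 7285 and 10372 normalised CPM at 6 hr, 1168 and 817 at 24 hr, 33058, 21457, 877, 149, 755 and 837 at 48 hr, 11492, 4256, 1259 and 866 at 72 hr, and 952, 958, 773 and 980 at 168 hr. No time passed the test, and at 6 hr the log2 fold change was 1.63 (adjusted p = 0.249). The level varied with the share of reads on genes and with library series, and their parts were not told apart. In the 8 lung libraries with under 20% of reads on genes Emp2 was at 2593 to 114796 normalised CPM (median 14009), in the 9 with 20 to 40% at 817 to 11491 (median 1168), and in the 7 with at least 40% at 149 to 980 (median 773). The count of Gm42418, a gene model that overlaps ribosomal RNA repeats, made up 15.5 to 68.6% of all counts on genes in the first set and 0.274 to 2.90% in the last. Library series 2 held Emp2 levels of 4256 to 114796, series 1 of 149 to 10372 and series 4 of 755 to 980. The part of library quality in lung Emp2 was not tested, and the 4 libraries of 168 hr, which spread least, lay at 773 to 980 normalised CPM, still above every brain and heart library. The response of Emp2 at 6 hr differed between lung and the mean of brain and heart by 3.34 (SE 0.88, adjusted p = 0.00517, 19.1% of 22007 genes called), and by 1.58 (adjusted p = 0.21) without the lung 6 hr replicate 2. This difference also did not pass with only libraries of at least 10% of reads on genes, where replicate 3 alone was left of lung 6 hr.

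**Figure D3:**
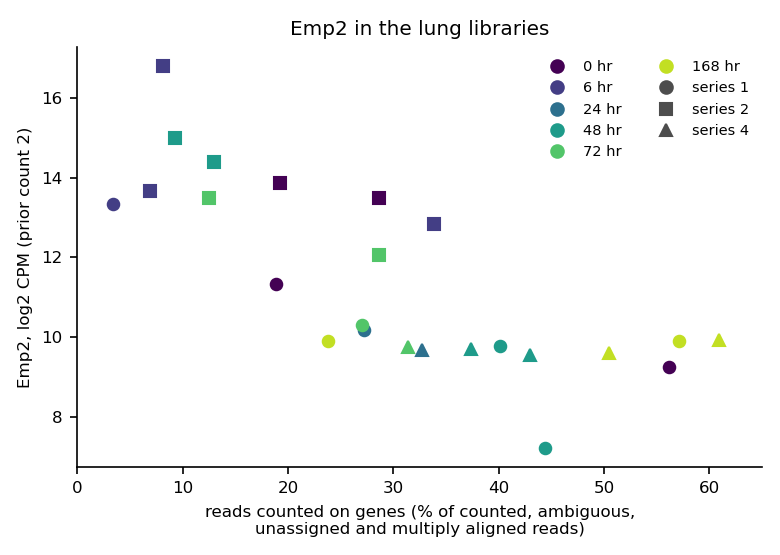
Emp2 as log2 CPM (vertical axis) against the percentage of reads on genes (horizontal axis) in the 24 lung libraries, 1 point each, with colour for the time point and shape for the library series. The libraries with under 20% of reads on genes all sit above the 7 with at least 40%.

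Kit did not pass in brain, heart or lung at any time. Lung Kit stood at 77.6, 4.37, 41.0 and 0 normalised CPM at 6 hr (−2.09, adjusted p = 0.0725) and at 30.4 to 58.9 at 72 hr, below all 0 hr libraries (−1.82, adjusted p = 0.391). At 168 hr it stood at 253.1 to 421.1. The difference in response between lung and the mean of brain and heart at 6 hr was −1.97 (SE 0.52, adjusted p = 0.00556), and it came to −0.28 (adjusted p = 0.887) when libraries were scaled by pan-endothelial counts. Kit also did not pass there with only libraries of at least 10% of reads on genes, where replicate 3 alone was left of lung 6 hr. Its ligand gene Kitl fell in heart at 6 hr and in brain at 24 hr. Heart Kitl stood at 196.9, 297.6, 84.5 and 276.5 normalised CPM at 6 hr and at 1070 in the library labelled replicate 5, against 873.4 to 1325, a log2 fold change of −1.40 (SE 0.48, adjusted p = 0.0218) that came to −2.51 without that library and was lost without replicate 4 of 0 hr or any 1 of the other 6 hr libraries (adjusted p up to 0.0687). At 24 hr the 4 heart libraries stood at 153.9 to 395.9, all below 0 hr, yet −1.46 did not pass (adjusted p = 0.065). Brain Kitl stood at 108.1, 74.9, 49.2 and 50.9 at 24 hr against 97.3 to 438.7, a log2 fold change of −1.51 (adjusted p = 0.0124). At 6 hr the change in brain was −0.94 (adjusted p = 0.102) with all libraries and −1.34 (adjusted p = 0.0091) without replicate 6, and DESeq2 called it with all libraries (adjusted p = 0.0482).

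Prx rose in brain from its very low level. Brain Prx stood at 15.1, 8.70, 16.2 and 16.0 normalised CPM at 24 hr, all above the 1.05 to 3.87 of 0 hr. The log2 fold change was 2.27 at 24 hr (SE 0.35, adjusted p = 3.67e-04), 2.03 at 48 hr (adjusted p = 5.41e-04) and 1.40 at 72 hr (adjusted p = 0.0215). The call at 72 hr was lost in 5 of 28 fits without 1 library, those without replicate 1, 4 or 5 of 0 hr or replicate 2 or 5 of 72 hr (adjusted p up to 0.105). At 48 hr brain replicates 1 and 2 were at 2.96 and 2.22 and the other 4 at 12.1 to 25.6. Heart Prx fell at 6 hr by −0.90 (adjusted p = 0.0471), with 3 libraries at 2.21 to 5.86, below 11.0 to 29.7 at 0 hr, and replicates 4 and 5 at 14.8 and 11.3, inside it. That call was lost in 18 of 28 fits without 1 library, among them the one without replicate 5 (−0.92, adjusted p = 0.052). At 24 hr all 4 heart libraries lay above 0 hr at 30.5 to 43.4, with a log2 fold change of 0.94 that did not pass (adjusted p = 0.0883). Brain and heart differed in the Prx response at 48 hr by 1.83 (adjusted p = 0.032), a call that 4 of 7 other settings lost. With the replicate number of each time as a block it came to 1.68 (adjusted p = 0.024) at 48 hr and to 1.60 at 24 hr, where it then passed too (adjusted p = 0.0389). Lung Prx passed at no time and stood at 117.7, 74.2, 667.3 and 202.2 normalised CPM at 6 hr and at 340.2 to 1785 at 168 hr.

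Tspan8 fell in lung at 6 hr to 0, 0, 24.7 and 28.9 normalised CPM, all below the 88.2 to 254.4 of 0 hr. The 28.9 of replicate 4 lies under that library's floor of 86.7. The log2 fold change of Tspan8 was −3.75 (SE 0.91, adjusted p = 0.0153), which did not pass without replicate 3 of 0 hr (adjusted p = 0.0557). Lung Tspan8 was still at 30.3 and 28.8 at 24 hr and stood at 206.9 to 471 at 168 hr. In heart it fell at 6 hr by −1.62 (SE 0.48, adjusted p = 0.0104), with 0.45 to 1.59 normalised CPM in 4 replicates and 4.66 in replicate 5 against 3.05 to 10.9. Without replicate 5 the change was −2.42 (adjusted p = 1.56e-04). In brain it did not pass at any time. The 6 hr response differed between lung and the mean of brain and heart by −2.85 (SE 0.75, adjusted p = 0.00543) and between brain and heart by 1.97 (adjusted p = 0.0417). The latter came to an adjusted p of 0.0632 without the brain replicate 6 and to 2.49 (adjusted p = 0.00307) without the heart replicate 5. The former did not pass with only libraries of at least 10% of reads on genes, where replicate 3 alone was left of lung 6 hr.

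**Figure D4:**
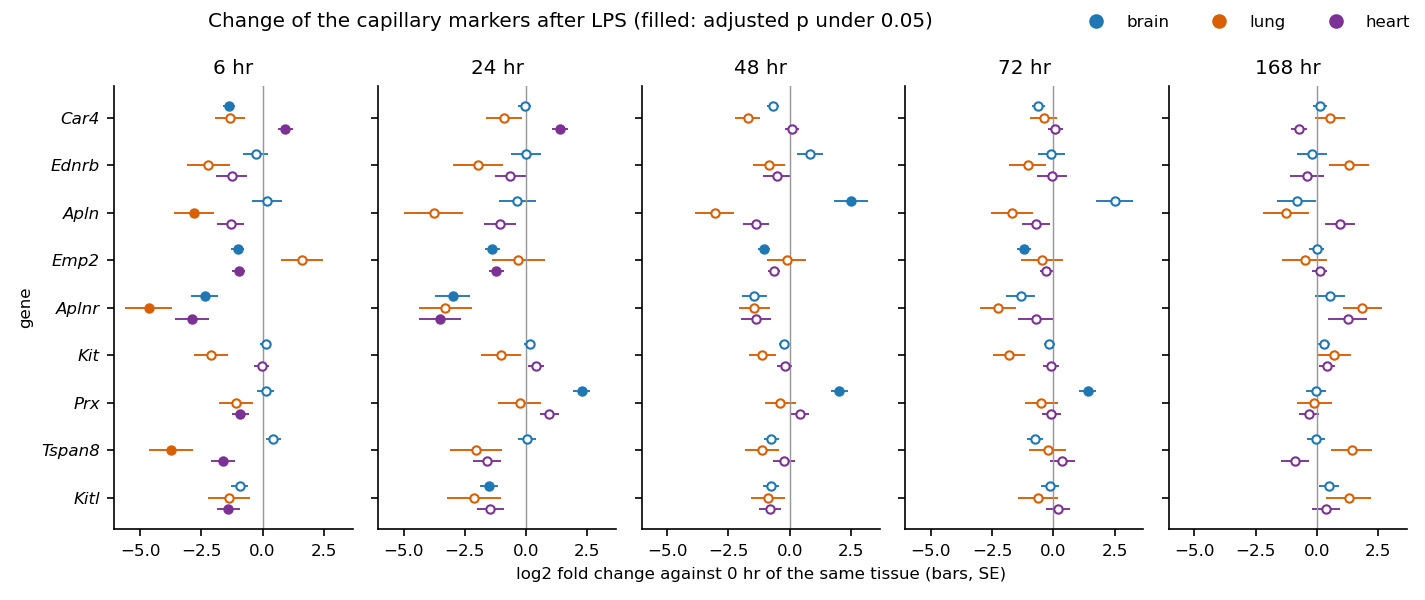
Log2 fold change of each gene against 0 hr of the same organ (horizontal axis, bars show the SE) at 5 times after LPS, coloured by organ and filled where adjusted p was under 0.05. Filled points stand mostly at 6 and 24 hr in brain and heart, and at 6 hr alone in lung.

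Counted over genes and times, lung gave 3 calls, all at 6 hr and all lower, where 4.83% of 17058 genes were called and 2.27% were called lower. Brain gave 3 calls at 6 hr (6.44% of genes), 4 at 24 hr (11.2%), 3 at 48 hr (14.2%) and 2 at 72 hr (3.53%). Heart gave 6 at 6 hr, where 42.8% of genes were called, and 3 at 24 hr (16.2%). No marker was called by the main edgeR fits in lung from 24 hr on, nor in heart from 48 hr on, nor in brain at 168 hr. Part of the libraries of these times were of series 4, which has no 0 hr library. These times called few genes in all: in lung 0.375, 0.598, 0.193 and 0.0117% in the order of these times, although 605 to 1674 genes had an unadjusted p under 0.05. In heart 4.19% were called at 48 hr and 0.275% at 72 hr, with 3264 and 943 genes at an unadjusted p under 0.05. At 168 hr no marker was called in any organ, and of all genes 2 passed in lung and none in brain or heart, with 828 and 680 at an unadjusted p under 0.05 in the latter. DESeq2 called 6 gene and time pairs in lung over all times, and the share of all genes it called is not given here.

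The lung calls at 6 hr rest on uneven libraries. Without replicate 3 there were 8 calls in lung over the 9 genes and 5 times, among them Prx (−2.67, adjusted p = 0.00104), Car4 (−1.67, adjusted p = 0.0251) and Ednrb (−2.82, adjusted p = 0.0488). Replicate 3 held 40128330 counts on genes against 284457 to 2745503 in the others of 6 hr. The share of all genes called without it is not given here. With only libraries that had at least 10% of reads on genes, a limit set after seeing the data, replicate 3 alone was left at 6 hr, and Apln, Aplnr and Tspan8 came to −1.54, −3.77 and −2.43 with none passing. At 6 hr pan-endothelial markers summed to 1475 to 6539 normalised CPM in lung, below all 0 hr libraries, and neutrophil markers to 0 to 3488 against 26.3 to 201. Neuron and cardiomyocyte markers also reached higher sums there, up to 607 and 1374 normalised CPM against at most 13.5 and 152 at 0 hr, and their part in the changes was not tested. Scaled by pan-endothelial counts, lung Aplnr (−3.54, adjusted p = 0.0154) and Tspan8 (−2.93, adjusted p = 0.0156) passed and Apln did not (−1.43, adjusted p = 0.137), with the median of all genes at 1.26 rather than −0.42.

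Further genes of both capillary types fell in lung at 6 hr, where 2.27% of all genes were called lower. The lung libraries of 6 hr had 6.93, 8.12, 33.9 and 3.40% of reads on genes. Of 6 further aerocyte genes 4 fell, Rprml by −4.70, Fibin by −4.62, Tbx2 by −3.23 and Nrp1, a co-receptor for VEGF and semaphorins, by −2.65. Of 8 further general capillary genes 5 fell, among them Sema3c (−4.03) and Tek, the angiopoietin receptor (−3.48). Their medians were −2.94 and −2.99, beside −2.09 over the 9 markers and −0.42 over all genes. Of 10 pan-endothelial genes only Erg passed, with a list median of −1.16. At 48 hr Tbx2, Fibin and Rprml were still lower and none of the further general capillary genes passed, with 0.17% of all genes called lower. In heart at 6 hr, 4 of 5 further aerocyte genes tested and 5 of 8 further general capillary genes fell, as did 8 of 10 pan-endothelial genes (medians −1.18, −1.57 and −1.06, all genes −0.05), at a time when 20.3% of all genes were called lower in heart. In brain at 6 hr the numbers lower were 1 of 6, 3 of 7 and 3 of 10, with 2.23% of all genes called lower, and 2 pan-endothelial genes were higher. Among ligands, receptors and paralogs, Pmp22 (−2.005) and Car14 (−5.77) fell in lung at 6 hr and Edn3 fell in brain.

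The genes whose group means followed each marker most closely over the 18 organ and time groups were found among 8965 genes. Prx went with Slco2a1, the prostaglandin transporter (Pearson's r = 0.96), Egfl7 (0.94) and Agtrap (0.93). Aplnr went with Dock1 (0.94), Kctd11 (0.94) and Aplp2 (0.93), and Kitl with Bcam, Plscr4 and Cav1 (0.94 each). Car4 had the loosest companions, Bmp4 at 0.81 and Epb41 and Mcfd2 at 0.80. Apln went with Pcdh12 (0.89), Smc4 (0.89) and the proliferation marker Mki67 (0.88), Ednrb with Pcdh17 (0.94), Ahr (0.92) and Ripor1 (0.91), and Kit with Ctnnd1 (0.95), Edc3 (0.92) and Pitpnc1 (0.92). Tspan8 went with Pdlim2 (0.96), Nkd1 (0.96) and Ptpru (0.95). Close to Emp2 were Amer1 (0.97) and Frrs1 (0.96). Among the 9 markers the closest pairs were Aplnr with Kitl (0.91) and Emp2 with Prx (0.84). The groups share library series and depth differences, and these values are descriptions over 18 points without a test.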

How the data were processed

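Ribosome-bound RNA was pulled down from brain, lung and heart and sequenced. The authors deposited raw read counts per gene and sequencing run, unnormalised. The submitters' processing notes name STAR 2.4.2, HTSeq 0.6.1 and mm10. Whether strand was used is not given in the sources used here. Runs of a library were summed, rows for reads on no or several genes entered no test, and libraries with under 3% of reads on genes were left out. Organ, time and replicate come from the labels, library series 1 to 4 from patterns in file names. The labels name no mouse, so that p-values measure the spread between libraries, which may in part be technical. Of 146 replicate pairs none held identical counts.

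Counts were tested in R 4.3.3 with edgeR 4.0.16: filterByExpr, TMM, quasi-likelihood F tests, two-sided, library series as covariate, Benjamini-Hochberg over all genes tested, threshold 0.05. One fit held the 14 libraries of 0 hr, each organ had its own LPS fit, and responses of organs were compared as interactions. The libraries used of 0 and 6 hr were all of series 1 or 2, and those of series 4 all of 24 to 168 hr. Series 4 has no 0 hr library, so that series and time cannot be fully told apart at these times. Levels and ranges carry no correction for series. The SE of a log2 fold change is its size over the root of F. Levels are given as CPM, log2 CPM or log2 RPKM with a prior count of 2, and floors are 3 counts, which cover counting error only. limma 3.58.1 (voom), DESeq2 1.42.0, other scalings, filters, library sets and terms were alternatives. Scripts were tested on simulated counts. Tables and figures used Python 3.11.15, pandas 2.3.3, numpy 2.4.6 and matplotlib 3.10.9. Coordinates are from GENCODE M21, perhaps not the authors' release.

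The markers and gene lists were chosen with earlier results of these data known. Named are the 9 markers, from each list its counts, median and largest calls, and per marker the 3 genes of highest Pearson correlation over 18 group means, among genes of mean log2 CPM of at least 3. One such gene of Emp2 is not reported here. Genes that show how libraries stand to their labels (Selp, Saa3, Gm42418) were named after their values were seen. Replicate numbers were checked for pairing by the correlation of deviations from group means, with a limit of 0.1. Within an organ the median over same-numbered pairs was under this limit, though 22 of 53 pairs in brain, 12 of 42 in lung and 13 of 56 in heart were over it. Across organs same-numbered libraries of 24 hr (6 of 6 pairs) and 168 hr (12 of 12) all correlated over 0.1. So did 17 of 18 pairs at 48 hr, 4 of 12 at 6 hr, 4 of 12 at 72 hr and 1 of 13 at 0 hr. The replicate number of each time was therefore added as a block of the comparisons between organs, after seeing the data.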

Additional observations from a re-analysis of the deposited data

Results flagged for a closer look

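Of 153 groups of 4 to 10 libraries, 10 (6.54%) held a library whose level stood apart from the others by Dixon's criterion, and chance flags about 1 in 20 groups. On the log2 CPM scale, Apln in brain at 6 hr stood at 3.65 in replicate 6 (12.5 normalised CPM against 17.4 to 18.8) and Kitl at 8.14 in the same library (281 against 50.9 to 78.1), the library whose Selp level was that of 0 hr. Heart replicate 2 of 0 hr held Aplnr at 9.25 (609 against 473 to 490) and Prx at 4.89 (29.7 against 11.0 to 13.8). Ednrb stood at 7.57 in heart replicate 6 of 48 hr (189 against 45.7 to 77.2), and Emp2 at 7.19 in heart replicate 1 of 72 hr (146 against 103 to 108). In lung at 168 hr Emp2 stood at 9.60 in replicate 4, below the others (773 against 952 to 980). Kit stood at 5.59 in brain replicate 3 of 72 hr (48.1 against 21.8 to 25.0) and Prx at 3.14 in brain replicate 2 of 24 hr, below the others (8.70 against 15.1 to 16.2). Tspan8 stood at 1.08 in heart replicate 2 of 24 hr (2.02 against 1.18 to 1.25).

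By interaction tests, the change from 0 hr to 6 hr in lung less the mean change in brain and heart was 3.34 for Emp2, −1.97 for Kit and −2.85 for Tspan8 on the log2 scale, and at 48 hr it was −1.45 for Car4 and −2.91 for Apln. Of these, Emp2 at 6 hr did not pass without the lung 6 hr replicate 2. Leaving out 1 library lost Car4 at 48 hr in 2 of 12 refits and Apln at 48 hr in 3 of 12. Scaling by pan-endothelial counts lost Kit at 6 hr and both differences at 48 hr. With only libraries of at least 10% of reads on genes, Emp2, Kit and Tspan8 at 6 hr did not pass. The change in brain less that in heart was −2.35 for Car4 and 1.97 for Tspan8 at 6 hr, −1.65 for Car4 at 24 hr, and 4.22 for Apln and 1.83 for Prx at 48 hr. Tspan8 at 6 hr did not pass without the brain 6 hr replicate 6, with no library series or under pan-endothelial scaling. Car4 at 24 hr did not pass with no library series, and Prx at 48 hr did not in 4 of 7 other settings.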

How the results depend on the processing

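Over the called markers, 1781 values were recomputed under other settings or without 1 library. Of these, 1659 kept direction and side of the threshold, 117 kept only direction and 5 reversed, all under scaling by pan-endothelial counts (chosen after seeing the data, as was the limit of 10% of reads on genes): Car4 in lung against the mean of brain and heart (−0.022) and against brain (−1.08), Kit in lung against brain (−0.38), and Ednrb (0.91) and Kit (1.77) in brain against heart. That scaling moved the share of higher among all called genes from 44.8 to 13.5% in lung against the mean at baseline, from 41.1 to 4.3% against brain and from 58.5 to 97.1% in brain against heart. After LPS the share moved from 52.9 to 96.2% in lung at 6 hr and 71.6 to 85.7% at 48 hr, from 65.4 to 87.6%, 57.0 to 11.0% and 84.5 to 13.5% in brain at 6, 48 and 72 hr, and from 52.5 to 85.4% and 73.5 to 58.7% in heart at 6 and 48 hr. For lung against the mean of both the shares at the 5 times went from 38.7, 86.0, 68.3, 30.0 and 19.8% to 81.3, 97.9, 95.2, 75.0 and 66.7%, and for brain against heart at the first 4 times from 33.9, 42.7, 48.5 and 80.2% to 5.8, 13.7, 12.8 and 49.7%. With RLE size factors the share was 66.1% in lung at 6 hr, and 49.8 and 43.0% for lung against the mean at 6 and 72 hr. Calls over genes and times after LPS were 12 in brain (7 in one fit of all organs), 9 in heart (16 with no filter), 3 in lung (6 by DESeq2, 5 with no filter, 13 in one fit of all organs, 0 with only the libraries of the time and of 0 hr), 5 for lung against the mean of brain and heart (9 by DESeq2, 12 with no filter, 2 under pan-endothelial scaling) and 5 for brain against heart (2 with no library series), and the cause was not tested. Leaving out 1 library gave 10 to 15 in brain, 7 to 11 in heart, 1 to 8 in lung (1 without the 0 hr replicate 3, 8 without the 6 hr replicate 3), 3 to 10 for lung against the mean over 12 refits, the others not being run (3 without the lung 0 hr replicate 3, 10 without the 0 hr replicate 1 or the 6 hr replicate 3), and 4 to 7 for brain against heart over 2 refits. The baseline counts were 6 to 8 without 1 library and 5 to 8 under the other settings (5 for lung against the mean with all libraries included). The shares of all genes called in the refits and other settings are not given here. With Spearman's rho in place of Pearson's r the closest companion of Car4 was again Bmp4 (0.88). Depth limits lung most, where 3 of 4 libraries of 6 hr had under 10% of reads on genes.

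Within an organ, deviations of same-numbered libraries had a median correlation of −0.035 (brain), 0.033 (lung) and 0.004 (heart). Of these pairs 22 of 53, 12 of 42 and 13 of 56 were over 0.1. Across organs of 1 time the median was 0.237 at 24 hr (6 of 6 pairs over 0.1) and 0.183 at 168 hr (12 of 12). At 48 hr it was 0.312 (17 of 18), where replicates 1 and 2 were those with low Selp in all organs. At 0, 6 and 72 hr the medians were 0.005, 0.046 and 0.076. With the replicate number of each time as a block shared by the organs, 5 gene and time pairs were called for lung against the mean of brain and heart (Car4 at 48 hr lost, Apln at 6 hr gained at −2.61, adjusted p = 0.033) and 7 for brain against heart (Ednrb at 6 hr gained at 2.97, adjusted p = 5.55e-04, and Prx at 24 hr). With 1 replicate block over all times the counts were 7 for lung against the mean at baseline, 8 against brain, 7 against heart and 8 for brain against heart, and after LPS 3 in lung, 13 in brain, 10 in heart, 6 for lung against the mean and 4 for brain against heart. With the mouse of the file names as a block the baseline counts were 7, 7, 8 and 8 in the same order.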
